A study of Homo sapiens with 2 samples.

Results

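DACH1, MEIS1, MEIS2, NPAS3, CREB5, ZFHX3 and ZFHX4 are transcription factor genes, most of them known from neural progenitors, and most of them long. They were taken by gene name, and all 7 were found among the 62704 genes of both libraries of the study, single cells and nuclei from brain organoids. The question was how much of each gene was present in radial glia (RG), excitatory neurons, inhibitory neurons and choroid plexus (ChP), and which of the 7 genes stayed expressed in neurons.

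All organoids were made from H9, a human embryonic stem cell line, so the data stand for 1 genetic background. The library of cells pooled control organoids (CO) of days 45, 55 and 70, organoids that were dissociated at day 45 and left to reaggregate (DISS) of days 48, 55 and 70, and organoids of day 55 held in an agarose gel from day 13 (CONS). The library of nuclei held day 45 CO, taken either whole or after dissociation, although the label also names embedding. Split-seq was used for both: fixed cells or nuclei pass through several plates and take up a label in each, and the series of labels, called a barcode here, marks a single cell or nucleus. Every barcode of a library carries the same sample name, so which condition, day or organoid it came from is not known here. Each library is therefore 1 sample, without replicates, and neither conditions nor days were compared and no p-values are given.

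Only barcodes above 500 genes and above 1000 transcripts, with a mitochondrial share of 20% or less, were used. This left 20178 cells with a median of 2615 transcripts and 14228 nuclei with a median of 3890. Of these, 99 barcode names occurred in both libraries, and whether any of them came from the same organoid cannot be told from a name, which is a combination of wells. Levels are given as CPM, the transcripts of a gene in a class per 1000000 transcripts of all genes in it. Intervals are exact 95% intervals of counting error only. First-round wells are the wells in which a barcode was first labelled. Which organoid and condition a well held is not known here, and several wells may hold the same organoid. Lowest, median and highest values over wells, and counts of wells, are therefore a description of spread and not of replicates.

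The classes were named with the markers given here, so the marker sums describe the classes and are no separate check of them. The 13 RG markers, among them SOX2 and SLC1A3, summed to 4186 CPM in RG-like and 1431 CPM in excitatory neuron-like cells, and to 4339 and 1144 CPM in nuclei. The 10 excitatory markers, among them NEUROD6 and TBR1, summed to 2518 CPM in excitatory neuron-like and 280 CPM in RG-like cells, and to 2084 and 195 CPM in nuclei. The 10 ChP markers, among them the thyroid hormone carrier TTR, summed to 17574 CPM in ChP-like cells and 29817 CPM in ChP-like nuclei. TTR alone was at 4412 CPM in these cells and 615 CPM in these nuclei. The ChP markers also reached 539 CPM in RG-like cells, and whether these 539 CPM were free RNA or expression was not tested. The RG-like class held 1872 cells and 1995 nuclei, the excitatory neuron-like class 1569 and 3329, and the ChP-like class 610 and 392. A group led by EOMES, a marker of intermediate progenitors, held 1004 cells and 579 nuclei, and dividing RG-like barcodes numbered 2728 and 3191. No cluster could be named inhibitory. Barcodes with transcripts of at least 3 of 10 inhibitory markers were used instead, which gave 4 cells and 20 nuclei. SLC32A1, GSX2 and LHX6 were at 0 in those cells and GSX2 and LHX6 in those nuclei, and 50% of the nuclei came from 1 well. The classes together took in 38.6% of the cells and 66.8% of the nuclei.

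Radial glia are the stem cells of the developing cortex. They divide at the ventricle and give rise to neurons, often through intermediate progenitors, and they are held in the progenitor state by networks of transcription factors. DACH1 is a DNA-binding cofactor of the SKI family that works with EYA proteins in the retinal determination network. MEIS1 and MEIS2 are TALE homeodomain proteins that bind DNA together with PBX partners, and MEIS2 is known from striatal and olfactory neuron development. NPAS3 is a bHLH-PAS factor that pairs with ARNT proteins. CREB5 is a bZIP factor of the family that binds cAMP response elements. ZFHX3 and ZFHX4 are very large proteins with many zinc fingers and several homeodomains, and ZFHX3 is known from neuronal differentiation and the circadian clock.

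The RefSeq promoter table (GRCh38.p14, 250 bases before to 50 after an annotated start) held entries for 6 of the 7 genes and none for ZFHX4. A first entry of each of 4 genes is shown, for the genes with the highest levels in RG per length of exon, because their base composition differed although the genes were high in the same class. Capitals mark every match, on either strand, to TGACAG (the core bound by MEIS factors), TATAAA (the TATA box), CCAAT (the CCAAT box), GGGCGG (the GC box) or TGACG (the core of the cAMP response element). The DACH1 promoter lies at chr13:71867155-71867454, minus strand, MEIS2 at chr15:37099057-37099356, minus strand, NPAS3 at chr14:32938629-32938928, plus strand, and CREB5 at chr7:28412268-28412567, plus strand. MEIS2 and CREB5 have further annotated starts.
DACH1: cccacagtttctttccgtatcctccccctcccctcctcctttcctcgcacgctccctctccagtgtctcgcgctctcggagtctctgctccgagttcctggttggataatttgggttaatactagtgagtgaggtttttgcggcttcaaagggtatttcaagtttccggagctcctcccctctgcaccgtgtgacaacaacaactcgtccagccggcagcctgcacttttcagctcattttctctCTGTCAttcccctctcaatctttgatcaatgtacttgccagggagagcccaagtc
MEIS2: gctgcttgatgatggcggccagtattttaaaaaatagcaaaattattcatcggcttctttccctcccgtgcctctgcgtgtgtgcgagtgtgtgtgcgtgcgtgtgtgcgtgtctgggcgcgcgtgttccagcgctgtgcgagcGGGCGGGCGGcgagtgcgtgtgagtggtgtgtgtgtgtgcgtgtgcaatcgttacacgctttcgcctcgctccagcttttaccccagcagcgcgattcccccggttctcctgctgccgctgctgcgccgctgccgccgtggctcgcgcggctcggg
NPAS3: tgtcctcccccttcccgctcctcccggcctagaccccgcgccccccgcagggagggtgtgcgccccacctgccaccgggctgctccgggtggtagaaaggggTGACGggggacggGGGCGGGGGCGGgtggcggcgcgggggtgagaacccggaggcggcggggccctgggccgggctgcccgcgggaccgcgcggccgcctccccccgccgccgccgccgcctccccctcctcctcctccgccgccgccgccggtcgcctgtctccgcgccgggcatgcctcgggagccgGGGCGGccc
CREB5: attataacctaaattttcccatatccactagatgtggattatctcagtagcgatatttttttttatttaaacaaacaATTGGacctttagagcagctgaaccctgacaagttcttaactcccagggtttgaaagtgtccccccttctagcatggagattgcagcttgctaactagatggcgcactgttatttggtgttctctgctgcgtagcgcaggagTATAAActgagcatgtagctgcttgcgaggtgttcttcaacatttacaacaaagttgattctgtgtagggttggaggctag

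The NPAS3 promoter was 83.0% G or C with 42 CpG dinucleotides, and that of MEIS2 62.7% with 35. DACH1 stood at 53.0% with 12 CpG and CREB5 at 41.7% with 5, against medians of 58.7% and 14.0 over all 35116 promoters in the table. The 4 genes thus had CpG-rich and CpG-poor promoters among them. A TGACAG core was found only in DACH1 among these 4, as CTGTCA on the strand shown, and 15.8% of all promoters held one. CREB5 alone held a TATAAA match, which 11.5% of promoters had, and also a CCAAT match, which 34.6% had. NPAS3 held 3 GC boxes and 1 TGACG, and MEIS2 had 2 overlapping GC boxes. GC boxes were in 45.0% and TGACG in 24.6% of all promoters. These are matches of letters. Counts per gene do not tell which start was used.

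In CPM and per length of exon, though not per length of the whole gene, DACH1 had the highest level of the 7 genes in RG. Its level was 2307 CPM (2282 to 2333) in RG-like cells, with a lowest, median and highest of 1354, 2133 and 2990 CPM over 27 wells, and 2306 ± 109 CPM (SD, n = 8 sub-libraries, technical). In nuclei it was 3864 CPM (3821 to 3907), with 2161, 2912 and 4711 CPM over 12 wells. In excitatory neuron-like barcodes the level was 361 CPM (352 to 370) in cells and 467 CPM (456 to 477) in nuclei, and the wells spanned 46.4 to 617 and 256 to 989 CPM. The well ranges of both classes did not overlap in either library. How many of all genes lacked overlap in this way, here and for the genes below, was not counted. The neurons were 6.40-fold lower (6.22 to 6.57) in cells, in 24 of 24 wells with both classes, and 8.28-fold lower (8.08 to 8.49) in nuclei, in 12 of 12. The fold in nuclei depends on cluster 13, one of the 4 clusters of the class, whose 780 of the 3329 nuclei gave 4815 of the 7754 DACH1 transcripts of the class. The other 2549 nuclei had 219 CPM, which was 17.7-fold lower than RG, a ratio of 0.0566 (0.0545 to 0.0588).

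NPAS3 showed the same order of classes. RG-like barcodes had 1384 CPM in cells (962, 1498 and 2101 over wells) and 2816 CPM in nuclei (2420, 2784 and 3843). Excitatory neuron-like barcodes had 229 CPM in cells (90.2, 184 and 468) and 388 CPM in nuclei (285, 355 and 568). Every RG well lay above every neuron well. The folds were 6.03 (5.83 to 6.24) and 7.25 (7.05 to 7.46), lower in neurons in all 24 and all 12 wells compared.

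CREB5 was at 1122 CPM in RG-like cells (302, 1094 and 1797 over wells) and 1836 CPM in nuclei (990, 1725 and 2151). In neurons it was at 196 CPM in cells (39.9, 156 and 340) and 167 CPM in nuclei (75.1, 160 and 244). The wells overlapped in cells and did not in nuclei. The level in neurons was 5.72-fold (5.51 to 5.93) and 11-fold (10.5 to 11.4) lower, in 24 of 24 and 12 of 12 wells.

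ZFHX4 had the steepest difference between RG and neurons of the 7 genes in each library at the clustering used here. In cells this order depended on the clustering, and at resolution 2 its log2 ratio was -0.82 instead of -3.05, shallower than that of DACH1 (-1.39). It was at 654 CPM in RG-like cells (330, 622 and 944 over wells) and 78.9 CPM in neurons (0, 46.1 and 248). In nuclei it was at 767 CPM (322, 706 and 870) and 44.9 CPM (14.0, 40.6 and 70.3). No well range overlapped. The level was 8.29-fold (7.83 to 8.78) lower in excitatory neuron-like cells and 17.1-fold (15.8 to 18.4) lower in such nuclei.

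MEIS2 kept more of its RG level in excitatory neurons than the other abundant genes, in nuclei by little once cluster 13 was left out. Without that cluster, excitatory neuron-like nuclei had 0.140 (0.136 to 0.144) of the RG level of MEIS2 and 0.133 (0.129 to 0.138) of that of NPAS3. RG-like cells had 1999 CPM (768, 1965 and 2866 over wells) and excitatory neuron-like cells 777 CPM (233, 735 and 1483), so that the wells overlapped. RG-like nuclei had 2965 CPM (1838, 2839 and 3544) and excitatory neuron-like nuclei 584 CPM (257, 498 and 747), without overlap. The neurons were 2.57-fold lower (2.52 to 2.63) in cells and 5.08-fold lower (4.96 to 5.20) in nuclei, in 24 of 24 and 12 of 12 wells. The size of this difference therefore depended on the library more than its direction did.

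MEIS1, the paralog of MEIS2, was low in RG-like and excitatory neuron-like barcodes. Its level was 33.8 CPM in RG-like and 20.3 CPM in excitatory neuron-like cells, and 60.3 and 22.4 CPM in nuclei. Neurons were lower by 1.67-fold (1.45 to 1.92) in cells, in 21 of 24 wells, and by 2.69-fold (2.35 to 3.09) in nuclei, in 11 of 12, while the well ranges overlapped in both. In cells the difference nearly vanished at other resolutions, with a log2 ratio of -0.08 at 0.5 and -0.15 at 2, instead of -0.74. In nuclei it rose to as much as -0.62 over the alternatives, instead of -1.43, and came under 2-fold. MEIS2 made up 98.3% of the transcripts of the MEIS1 and MEIS2 pair in RG-like cells and 97.5% in neurons, and 98.0% and 96.3% in nuclei. MEIS1 was thus a small part of the pair in both classes, also where MEIS2 was lower.

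ZFHX3 went the other way. It was at 118 CPM in RG-like cells (30.4, 114 and 236 over wells) and 179 CPM in excitatory neuron-like cells (62.8, 185 and 452). In nuclei the levels were 125 CPM (68.6, 139 and 197) and 205 CPM (152, 197 and 272). Wells overlapped in both libraries. The level in neurons was 1.52-fold higher (1.44 to 1.62) in cells, in 23 of 24 wells, and 1.65-fold higher (1.53 to 1.77) in nuclei, in 11 of 12. With ZFHX4 falling away, the share of ZFHX4 among transcripts of ZFHX3 and ZFHX4 went from 84.8% in RG-like to 30.6% in excitatory neuron-like cells, and from 86.0% to 18.0% in nuclei.

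**Figure D1:**
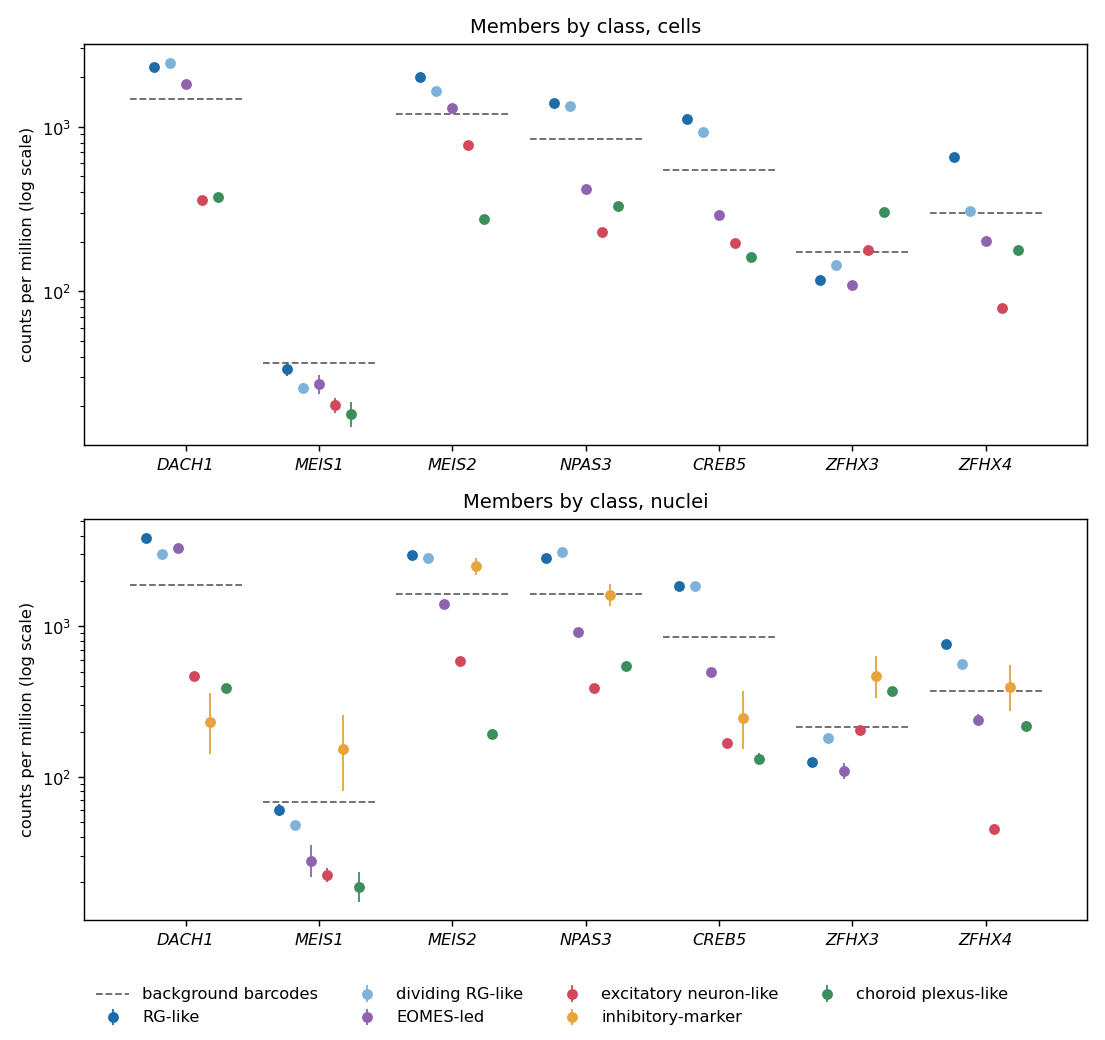
Level of each gene (CPM, log scale) in each class of cells (top) and nuclei (bottom); points are pooled classes, bars exact 95% intervals of counting error, dashed lines the background barcodes. In excitatory neuron-like nuclei DACH1 sits at 467 and MEIS2 at 584, against 3864 and 2965 in RG-like nuclei, and ZFHX3 sits higher than in RG.

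Counting the 7 genes together, 5 were at least 2-fold lower and 0 at least 2-fold higher in excitatory neuron-like than in RG-like cells. Of the 18977 genes with enough counts, 10.7% were at least 2-fold lower and 7.72% at least 2-fold higher. The count of 5 depends on the clustering. At Leiden resolution 2 it was 2, against 5.72% of all genes, with log2 ratios of -0.98 for CREB5, -0.82 for ZFHX4 and -0.41 for MEIS2. In nuclei, 6 of 7 were lower and 0 higher, against 17.2% and 11.8% of 15521 genes. The median log2 ratio of the 7 genes was -2.51 in cells and -2.86 in nuclei, and that of all genes -0.17 and -0.19. The genes were picked with progenitor expression in view, so these counts describe the list and are no test of it.

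The excitatory neuron-like class did not hold every barcode with neuronal markers. In cells, cluster 16 also carried the excitatory name but was kept out, by a rule set after the data were seen, because 3 markers of hypoxia and glycolysis (BNIP3, PDK1 and VEGFA) passed the naming limits in it, as did the excitatory markers NEUROD6, BCL11B and SLA. Its leading genes were KCTD16, ADARB2 and KCNQ5. It held 2479 barcodes, 12.3% of the cells, with a median of 1731 transcripts and 41.1% of them from 1 well. DACH1 was there at 1432 CPM, MEIS2 at 1687, NPAS3 at 878, CREB5 at 614 and ZFHX4 at 306 CPM, with ZFHX3 at 134 and MEIS1 at 32.8 CPM. Barcodes with 10 to 100 transcripts had 1468, 1199, 842, 544, 300, 174 and 36.8 CPM in the same order, so that MEIS2 was higher in the cluster than in them and DACH1, NPAS3 and ZFHX4 were close to them. The size of the class and of the differences in cells depended on the clustering. The class held 2738 cells at a resolution of 2, 6520 at 0.5, 3733 with another seed and 3981 with the 7 genes and their relatives among the variable genes. The log2 ratios to RG at resolution 2 were -1.39 for DACH1, -1.27 for NPAS3, -0.98 for CREB5, -0.82 for ZFHX4 and -0.41 for MEIS2. At resolution 0.5 they were -1.14, -1.12, -1.16, -1.24 and -0.55 in the same order, against -2.68, -2.59, -2.51, -3.05 and -1.36 as reported. The direction of these 5 genes was the same, and the folds given above for cells hold for the class as built here. In nuclei the class held 1929 at resolution 2, 1076 at 0.5 and 1516 with another seed, against 3329 as reported. It held 3326 with the 7 genes and their relatives among the variable genes. Over all alternatives, log2 ratios in nuclei ran from -4.14 to -2.86 for DACH1, -3.23 to -2.52 for NPAS3 and -3.94 to -2.61 for CREB5. Those of ZFHX4 ran from -5.02 to -3.33 and those of MEIS2 from -2.84 to -1.71. The folds in nuclei hold for the class as built too. Depth within the class was also compared. Among cells of more than 5000 transcripts, DACH1 was at 2356 CPM in RG and 370 CPM in excitatory neurons, and among the others at 2099 and 261 CPM. ZFHX4 was at 661 and 82.0 CPM in the deeper cells and at 624 and 45.4 CPM in the others, a wider gap.

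**Figure D2:**
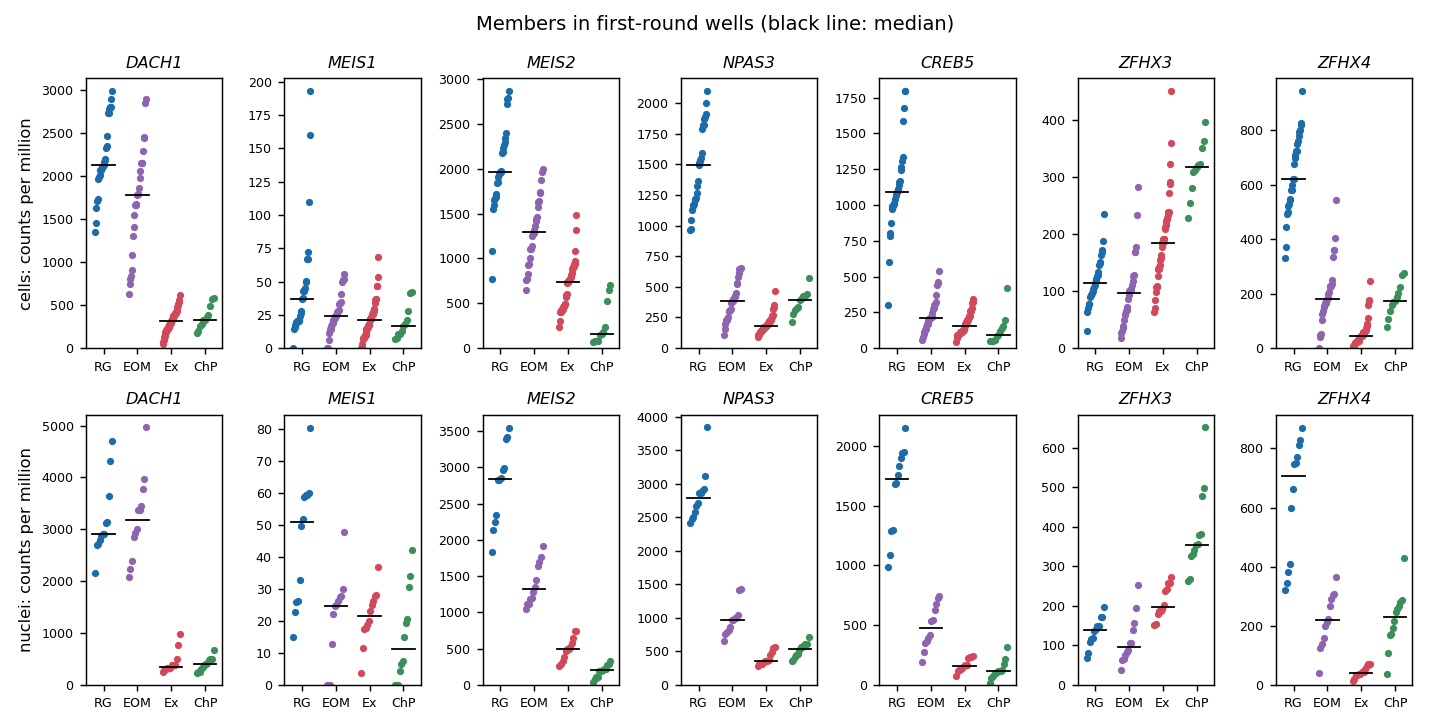
Level of each gene (CPM) in single first-round wells of cells (top row) and nuclei (bottom row), for RG-like (RG), EOMES-led (EOM), excitatory neuron-like (Ex) and ChP-like (ChP) barcodes; each point is 1 well with at least 10 barcodes of the class, and the black line is the median. DACH1, NPAS3 and ZFHX4 have no overlap between RG and Ex in either library, whereas MEIS1 and ZFHX3 overlap in both. How many of all genes have no overlap was not counted.

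Whether a gene stayed expressed in neurons depends on how much of its signal was free RNA. Barcodes of 10 to 100 transcripts, which mostly hold no cell, had 1468 CPM of DACH1, 1199 of MEIS2, 842 of NPAS3, 544 of CREB5, 300 of ZFHX4, 174 of ZFHX3 and 36.8 of MEIS1 in the library of cells. In that of nuclei they had 1866, 1640, 1648, 852, 369, 213 and 68.3 CPM in the same order. These barcodes thus carried all 7 genes. They were taken as free RNA, which was not tested. The share of free RNA in a class was set by taking all ChP markers seen outside ChP as free RNA, also an assumption. This gave 16.9% in excitatory neuron-like cells and 5.99% in such nuclei. After it was taken away, MEIS2 was at 691 CPM in cells and 517 CPM in nuclei. ZFHX3 was at 180 and 205 CPM. Its level before (179 and 205 CPM) was close to that of the background, so taking a share away leaves it nearly as it was. DACH1 came to 135 CPM in cells but 377 CPM in nuclei, and NPAS3 to 105 and 308 CPM. CREB5 was left with 126 and 124 CPM, ZFHX4 with 33.9 and 24.3 CPM, and MEIS1 with 16.9 and 19.5 CPM. In cells and under these assumptions, most of the DACH1, NPAS3 and ZFHX4 signal of neurons was taken away. Most of that of MEIS2, MEIS1 and CREB5 remained. For ZFHX3 this step cannot tell free RNA from expression. In nuclei, cluster 13 set part of these values, and without it 114 of 219 CPM remained of DACH1 and 12.7 of 34.1 CPM of ZFHX4, with the same free RNA share.

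Shares of barcodes with at least 1 transcript were read after thinning each barcode to 1000 transcripts. MEIS2 was seen in 79.6% of RG-like and 45.6% of excitatory neuron-like cells, and in 22.6% of ChP-like cells, the class with its lowest level. In nuclei these shares were 89.9%, 34.7% and 8.93%. Median depths before thinning were 7614 transcripts in neurons and 4794 in ChP-like cells, and 4167 and 9506 in nuclei. MEIS2 was therefore seen in neurons more often than in ChP in both libraries. DACH1 was seen in 83.1% of RG-like, 21.2% of excitatory neuron-like and 29.8% of ChP-like cells, and in 92.5%, 22.7% and 25% of nuclei, so that the neurons did not exceed ChP. The shares of NPAS3 were 64.6%, 15.6% and 28.0% in cells and 86.7%, 24.1% and 38.3% in nuclei, also with neurons at or below ChP. ZFHX4 had 43.6%, 6.12% and 16.9% in cells and 48.0%, 3.88% and 12.2% in nuclei. For these 3 genes the neurons therefore gave no higher share than ChP, while the levels left after free RNA was taken away were those given above. Whether ChP itself expressed them was not tested. CREB5 was seen in 15.2% of neurons and 14.9% of ChP-like cells, and in 12.6% and 8.93% of nuclei. ZFHX3 was the only gene of the 7 seen in more neurons than RG, in 14.5% against 11.2% of cells and 17.2% against 12.0% of nuclei, and 16.0% and 19.2% of draws of 1000 transcripts from the background held it. Such draws held DACH1 in 77.0% and 84.6%, against RG shares of 83.1% and 92.5%. MEIS2 was in 69.9% and 80.6% of draws, against 79.6% and 89.9% of RG. In both libraries the neuron share of each of the 7 genes lay below that of the draws.

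Of the 7 genes, RG-like barcodes held a median of 4 and excitatory neuron-like barcodes a median of 1 at 1000 transcripts, in both libraries. No transcript of any of them was seen in 1.39% of RG-like and 26.8% of neuron-like cells, and in 30.8% of neuron-like nuclei. At least 4 of them were seen in 50.5% of RG-like and 2.49% of neuron-like cells, and in 75.4% and 3.06% of nuclei. Most RG-like nuclei thus held several of these genes at once and most neuron-like nuclei did not, a description that follows from the levels above. Draws from the background often held DACH1 and MEIS2 too, as given above, and how many of the 7 genes such draws held was not counted.

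Between RG and neurons, the EOMES-led barcodes did not treat the genes alike. DACH1 held at 1808 CPM in EOMES-led cells and 3301 CPM in nuclei, 0.783 and 0.854 of RG, and was lower than RG in 16 of 22 and 7 of 12 wells. From there to excitatory neurons it was 5.01-fold and 7.08-fold lower, in 24 of 24 and 12 of 12 wells. NPAS3, CREB5 and ZFHX4 were already 3.30-, 3.85- and 3.26-fold lower than RG in EOMES-led cells, and 3.10-, 3.70- and 3.19-fold lower in nuclei, in every well compared. MEIS2 lay between, at 0.648 of RG in cells and 0.472 in nuclei. In this order of classes NPAS3, CREB5 and ZFHX4 were lower than RG in the EOMES-led class already, and DACH1 mainly in neurons. The classes were not alike in both libraries. NEUROD6 was at 210 CPM in EOMES-led and 250 CPM in excitatory neuron-like cells, but at 24.0 and 113 CPM in nuclei. The EOMES-led cells shared leading genes such as EBF2, CHST8 and CNTN2 with cluster 13 of the nuclei, which was counted as excitatory and gave 4815 of the 7754 DACH1 transcripts of that class. Counted at 2-fold, 3 of 7 genes were lower in EOMES-led cells and 5 of 7 in nuclei, against 8.47% and 12.4% of all genes. The order of classes is not a measured time course.

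**Figure D3:**
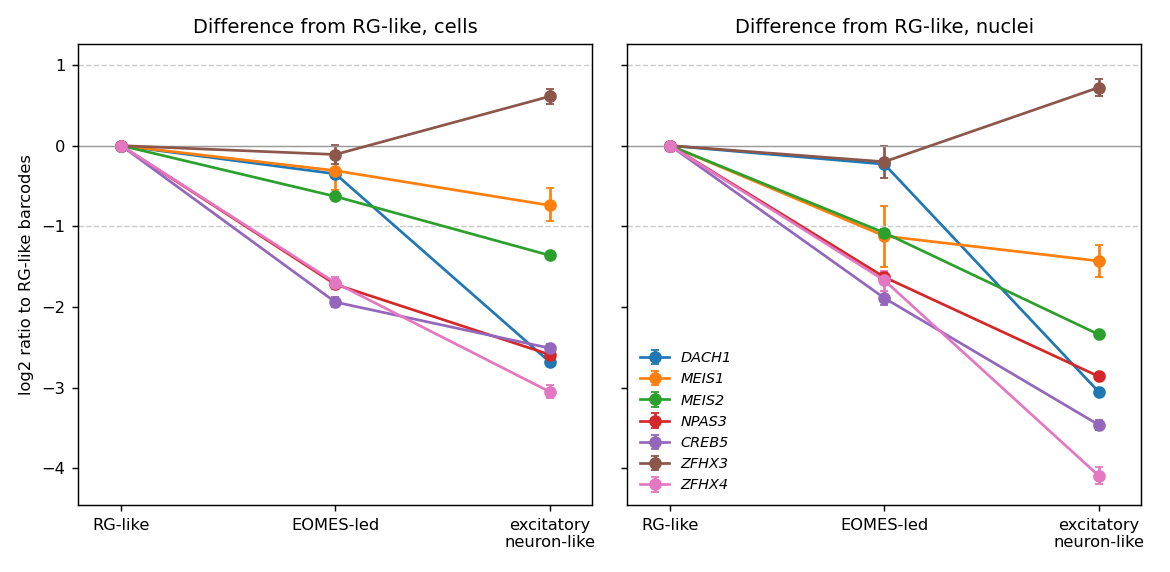
Log2 ratio of each gene to RG-like barcodes in EOMES-led and excitatory neuron-like barcodes of cells (left) and nuclei (right); bars are exact 95% intervals of counting error and dashed lines mark 2-fold. DACH1 stays near RG in the EOMES-led class (-0.35 and -0.23) and drops in neurons (-2.68 and -3.05), while NPAS3, CREB5 and ZFHX4 are already at -1.63 or lower in the EOMES-led class.

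Dividing and other RG differed less. In cells, ZFHX4 was 2.13-fold lower in dividing RG-like barcodes (307 against 654 CPM), in 17 of 18 wells. DACH1 was at 2446 against 2307 CPM, with the pooled value higher although 15 of 18 wells had it lower. The dividing class of cells pooled 3 clusters that were not alike. ZFHX4 was at 437 CPM in cluster 6, led by AURKB, 239 in cluster 9, led by SV2C, and 190 in cluster 15, led by ADAMTS19. DACH1 was at 2107, 3335 and 2222 CPM in the same order. In nuclei, the ratios of dividing to other RG ran from 0.736 for ZFHX4 to 1.45 for ZFHX3. DACH1 was at 3020 CPM in dividing and 3864 CPM in other RG-like nuclei, lower in 11 of 12 wells. NPAS3 was at 3093 and 2816 CPM, higher in 6 of 12 wells, and ZFHX4 at 564 and 767 CPM.

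ChP comes from the same neuroepithelium as the cortex and makes cerebrospinal fluid. ZFHX3 was highest in ChP of the RG, excitatory and ChP classes. It was at 302 CPM in ChP-like cells (228, 318 and 398 over 11 wells) and 371 CPM in nuclei (262, 354 and 652 over 12). That was 2.57-fold (2.41 to 2.74) and 2.98-fold (2.75 to 3.23) above RG, in 10 of 10 and 12 of 12 wells. MEIS2 was 7.30-fold lower than RG in ChP-like cells (274 CPM) and 15.4-fold lower in nuclei (193 CPM). With the free RNA share of ChP taken as the mean of those of RG and neurons, an assumption, 43.9 and 102 CPM of it remained. MEIS2 was 2.84-fold (2.71 to 2.97) higher in excitatory neurons than in ChP in cells, in 9 of 9 wells, and 3.03-fold (2.82 to 3.26) in nuclei, in 11 of 12. In cells, cluster 17 gave 1191 of the 2081 MEIS2 transcripts of ChP from 125 barcodes, of which 92.0% came from 1 well. Without it ChP had 142 CPM, the neurons were 5.45-fold (5.10 to 5.84) higher, and 0 CPM of MEIS2 in ChP remained after free RNA was taken away. ZFHX4 had the reverse order and was 2.27-fold lower in neurons than in ChP in cells and 4.87-fold lower in nuclei, in every well compared. DACH1 differed little between neurons and ChP, at 0.959 (0.917 to 1.00) in cells and 1.20 (1.14 to 1.27) in nuclei, where it was at 219 CPM in neurons without cluster 13 against 387 CPM in ChP. Cluster 11 of the cells (1014 barcodes) and cluster 6 of the nuclei (833) were left out of ChP. TTR, HTR2C, CLIC6, SLC4A5 and OTX2 passed the naming limits in both. They stayed unnamed because the cortical hem marker RSPO2, and no ChP marker, was among their leading genes. MEIS2 was at 24.7, 229 and 942 CPM over 21 wells of cluster 11 and at 75.1, 477 and 1469 CPM over 12 wells of cluster 6.

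At 2-fold, 5 of 7 genes were lower and 1 higher in ChP-like than in RG-like cells, where 11.7% and 13.1% of all genes were. In nuclei, 6 of 7 were lower and 1 higher, with 19.4% and 14.5% of all genes. The gene that was higher is ZFHX3 in both. Without cluster 17, the log2 ratio of MEIS2 in ChP over RG went from -2.87 to -3.81 and that of CREB5 from -2.81 to -3.75. Over all alternatives the highest values were -1.17 for MEIS2 and -1.09 for CREB5, both at resolution 0.5. That of ZFHX4 was -0.96 instead of -1.87, under 2-fold. ZFHX3 in ChP over RG in cells fell from 1.36 to as little as 0.82, under 2-fold, at resolution 0.5, with another seed and with the 7 genes among the variable genes. In these 3 settings the ChP-like class held only 117, 123 and 136 cells, against 610 as reported. Cluster 17 alone held 125, with MEIS2 at 882 CPM, CREB5 at 518 and ZFHX3 at 212. Whether the smaller classes were mainly that cluster was not tested. In nuclei the ChP-like class held 922 at resolution 2, 397 with another seed and 424 with the 7 genes among the variable genes, against 392. Over all alternatives its log2 ratios to RG in nuclei ran from -4.91 to -2.46 for MEIS2 and -4.46 to -2.47 for CREB5. Those of ZFHX4 ran from -2.27 to -1.29, of ZFHX3 from 1.07 to 1.77 and of MEIS1 from -2.09 to -0.99.

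The inhibitory-marker nuclei had more MEIS2, NPAS3, ZFHX4, ZFHX3 and MEIS1 than excitatory neurons. MEIS2 was at 2495 CPM (2172 to 2852, from 214 transcripts), 0.841 (0.732 to 0.963) of RG and 4.27-fold (3.71 to 4.89) above excitatory neurons. NPAS3 was at 1620 CPM (1362 to 1913), 1.74-fold (1.47 to 2.07) lower than RG and 4.17-fold (3.50 to 4.94) above excitatory neurons. Against RG, the log2 ratio of MEIS2 was -0.25 and that of NPAS3 -0.80. Over the alternatives that of MEIS2 ran from -0.98 to 0.12, so that its sign was not kept, and that of NPAS3 from -1.26 to -0.52. ZFHX4 was at 396 CPM (274 to 554) and ZFHX3 at 466 CPM (333 to 635), 8.82-fold (6.06 to 12.4) and 2.27-fold above excitatory neurons. Among such nuclei of more than 5000 transcripts, the log2 ratio to RG was -2.81 instead of -0.95 for ZFHX4 and 0.88 instead of 1.90 for ZFHX3. DACH1 and CREB5 did not share this pattern. DACH1 was at 233 CPM (142 to 360), 16.6-fold (10.7 to 27.1) lower than RG, and CREB5 at 245 CPM (152 to 374), 7.50-fold (4.90 to 12.1) lower. MEIS1 was at 152 CPM (80.7 to 259, from 13 transcripts), 2.51-fold (1.33 to 4.34) above RG, but without the well that gave 50% of these nuclei its log2 ratio to RG was -0.17 instead of 1.33. At 2-fold, 2 of 7 genes were lower and 2 higher than in RG, with 36.8% and 12.7% of all genes. These are 20 nuclei, and only 1 well held at least 10 of them, so no spread over wells can be given.

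The 4 inhibitory-marker cells had 67 transcripts of NPAS3 (2357 CPM, 1827 to 2994) and 27 of MEIS2 (950 CPM, 626 to 1382). They had 3 of DACH1, 3 of MEIS1, 2 of CREB5 and 6 of ZFHX3. ZFHX4 had 0 transcripts, which allows up to 130 CPM. Of these 4 cells, 3 lay in cluster 8 of the cells. That cluster stayed unnamed, and the RG markers SOX2 and VIM and the division markers MKI67 and TOP2A were among its marker genes. Whether the 4 cells were inhibitory neurons was not tested. The limit of at least 2 markers, chosen after the data were seen, gave 41 nuclei. In these MEIS2 was at 2374 CPM, NPAS3 at 1968 CPM, ZFHX4 at 646 CPM, ZFHX3 at 596 CPM, DACH1 at 603 CPM, MEIS1 at 203 CPM and CREB5 at 148 CPM. All 41 lay in cluster 12 of the nuclei, which was led by NXPH1, a neurexin ligand, and held 837 nuclei. That cluster stayed unnamed, and RELN and EBF3, markers of Cajal-Retzius neurons, were among its marker genes. As a whole it had 1973 CPM of MEIS2, 1280 of NPAS3, 387 of ZFHX3, 331 of ZFHX4 and 382 of MEIS1, all above excitatory neurons, so the pattern was not particular to the nuclei with inhibitory markers. DACH1 was at 611, 979 and 1896 CPM over 12 wells of cluster 12, and CREB5 at 87.0, 284 and 616 CPM. Excitatory neuron-like nuclei had 467 CPM of DACH1, below the 603 CPM of the 41 nuclei, and 167 CPM of CREB5.

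Excitatory neuron-like nuclei were made of 4 clusters, which were not alike. Cluster 13, with EBF2 among its leading genes, had 1517 CPM of DACH1, with 611, 1308 and 2570 CPM over its wells. Cluster 8, led by SLC24A2, had 188 CPM (103 to 286 over wells), and clusters 9 and 10, led by PRDM8 and MAL2, had 244 and 235 CPM. The wells of cluster 13 did not overlap those of cluster 8. MEIS2 was at 1303 CPM in cluster 13, 727 CPM in cluster 9, 292 CPM in cluster 10 and 297 CPM in cluster 8. ZFHX3 had the opposite order, with 264 CPM in cluster 8 and 74.7 CPM in cluster 13, the latter below the 125 CPM of RG-like nuclei. NPAS3 varied less, from 306 CPM in cluster 8 to 512 CPM in cluster 10. Clusters were formed from the expression of these same nuclei, so their differences are a description.

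MEIS1, low in the RG-like, excitatory and ChP-like classes, had its highest levels in clusters outside them. It reached 382 CPM in cluster 12 of the nuclei (202, 348 and 572 over 12 wells) and 412 CPM in cluster 19, led by PAX3, a dorsal patterning factor (306 to 782 over 9 wells). In cells it reached 302 CPM in cluster 3, led by RELN (27.0 to 703 over 7 wells). In RG-like nuclei the highest well had 80.3 CPM, below those clusters, whereas RG-like cells reached 193 CPM in a well and overlapped cluster 3.

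**Figure D4:**
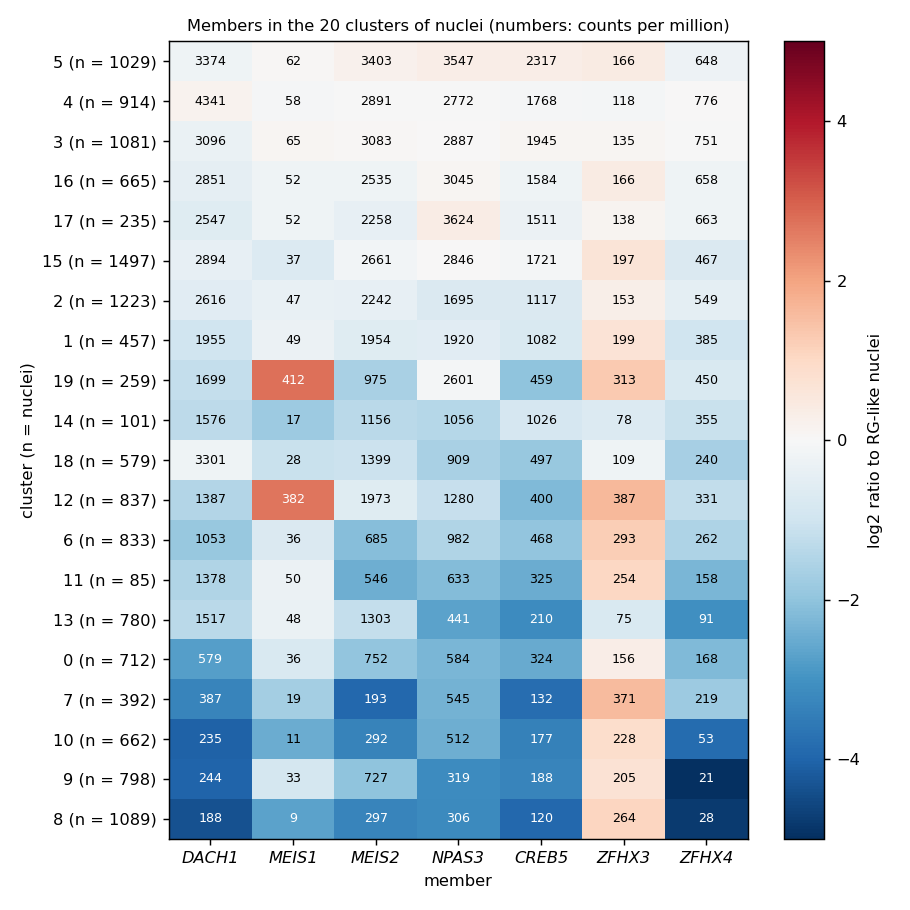
The 7 genes in the 20 clusters of nuclei; colour is the log2 ratio to RG-like nuclei, numbers are CPM, and each row gives the cluster's number and its number of nuclei. MEIS1 stands out in clusters 12 and 19 (382 and 412), and cluster 13 is the excitatory cluster with the highest DACH1 (1517).

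The genes whose levels over clusters were most like each of the 7 were listed from 11273 genes, by Pearson r of log2(CPM + 10) over 22 clusters of cells and 20 of nuclei. Clusters share a library and differ in depth, so r is a description. NPAS3 was closest to RFX4, a factor of neural progenitors (0.95 in cells, 0.96 in nuclei), followed by IFI44L and BMPR1B. CREB5 was closest to TMEM131 (0.95 and 0.95), then PHLPP1 and MIR222HG, and PHLPP1 was also listed for DACH1, after TOX3 (0.91 and 0.91) and ENSG00000262198. MEIS2 was closest to HS6ST2 (0.93 and 0.92), then LINC00511 and CNTFR. ZFHX4 was closest to RFTN2 (0.86 and 0.83), then ZBTB20 and MEGF10, and ZFHX3 to MAP7 (0.82 and 0.80), then HOMER2 and ABLIM1. MEIS1 was closest to the long noncoding RNA LINC01798 (0.80 and 0.89), then GREB1L and TFAP2B.

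Relatives and partners of the 7 genes were read between excitatory neuron-like and RG-like barcodes. Genes with at least 50 counts over the RG-like, excitatory, inhibitory and ChP classes in each of both libraries were counted. Of 9 TALE relatives and partners of MEIS, 3 were at least 2-fold lower and 1 higher in each library. PBX3 had a log2 ratio of -2.43 in cells and -2.99 in nuclei, and the repressors TGIF2 and TGIF1 had -1.88 and -2.25, and -1.86 and -2.05. In the DACH network, 9 of 13 genes had enough counts, and 1 was lower and 1 higher in each library. SIX5 missed the limit in nuclei (47 counts), and its values were -3.03 in cells and -4.07 in nuclei. EYA2, a phosphatase of this network, was higher, by a log2 ratio of 1.23 and 3.75. SIX4 was at -1.34 and -0.95, and EYA4 at -0.66 and -2.39. Of the 4 bHLH-PAS genes with counts, 0 were past 2-fold in either library. NPAS4, an activity-dependent gene, missed the limit with 18 counts in nuclei and had 1.85 and 1.20. NPAS2 was at -0.74 and -0.57, and ARNT at -0.47 and -0.40. Of 7 bZIP genes, 0 were past 2-fold in cells and 2 were lower in nuclei, among them JUN (-0.73 and -1.92) and CREM (-0.95 and -1.16), and JUND was at -0.79 and -0.93. ZFHX2, the remaining ZFHX relative, was higher in neurons (1.24 and 1.88), as ZFHX3 was. Of 24 other forebrain factors, 15 were lower and 3 higher in each library. The higher ones were NFIB and BCL11A in both, with SOX5 in cells and NFIA in nuclei, named after their values were seen. Over all genes, 10.7% were lower and 7.72% higher in cells, and 17.2% and 11.8% in nuclei. RFX4 was at -3.10 and -4.26, and TCF7L1, a repressor of Wnt target genes, at -3.04 and -3.48.

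The genes were long to differing degrees. In GRCh38 with GENCODE release 44, DACH1 spans chr13:71437966-71867204 on the minus strand (429 kb), MEIS1 chr2:66433452-66573869 (140 kb, plus), MEIS2 chr15:36889204-37101299 (212 kb, minus), NPAS3 chr14:32934396-33820863 (886 kb, plus), CREB5 chr7:28299321-28825894 (527 kb, plus), ZFHX3 chr16:72782885-73891871 (1109 kb, minus) and ZFHX4 chr8:76681239-76867281 (186 kb, plus). Between 81.4% (MEIS1) and 99.6% (ZFHX3) of 16671 genes were shorter. ZFHX3 is overlapped by the antisense gene ZFHX3-AS1 (65.6 CPM in RG-like and 49.6 CPM in neuron-like cells) and ZFHX4 by ZFHX4-AS1 (27.4 and 5.17 CPM), and how the counting used strand is not given in the sources used here. Per kb of exon, the order of levels in RG was DACH1 (406 CPM per kb in cells, 680 in nuclei), then MEIS2 (168 and 249) and NPAS3 (124 and 252), then CREB5 (96.1 and 157), ZFHX4 (41.3 and 48.4), ZFHX3 (5.26 and 5.58) and MEIS1 (3.09 and 5.51). MEIS2 and NPAS3 changed places between the libraries. On the same scale, MEIS2 (65.3) and DACH1 (63.5) led in excitatory neuron-like cells, and DACH1 (82.2) and MEIS2 (49.1) in such nuclei. Per kb of the whole gene the order in RG was another one, the same in both libraries. In RG-like cells it was MEIS2 (9.43 CPM per kb), DACH1 (5.38), ZFHX4 (3.52), CREB5 (2.13), NPAS3 (1.56), MEIS1 (0.241) and ZFHX3 (0.106). MEIS2 also led in excitatory neurons on that scale, with 3.66 in cells and 2.75 in nuclei. Of the genes with a promoter entry, those shown above were the highest in RG on that scale too.

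Nuclei had more of most of these genes than cells did. In RG-like barcodes the ratio of nuclei to cells was 2.03 for NPAS3, 1.78 for MEIS1, 1.67 for DACH1, 1.64 for CREB5, 1.48 for MEIS2, 1.17 for ZFHX4 and 1.06 (0.979 to 1.15) for ZFHX3. NPAS3 alone was 2-fold or more above cells, as were 1.29% of 16581 genes. In excitatory neuron-like barcodes it was 1.69 for NPAS3 and 1.29 for DACH1, but 0.752 for MEIS2 and 0.569 for ZFHX4, and 0 of the 7 were 2-fold or more above cells, against 1.47% of 17865 genes. The median log2 ratio of all genes was -0.32 in RG, and -0.03 for genes of at least 100 kb. The libraries differ in cell or nucleus, day and treatment together, which cannot be told apart.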

How the data were processed

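The authors ran the Parse Biosciences pipeline with the GRCh38 genome. They deposited raw transcript counts for each gene in each barcode, unfiltered and not normalized by the authors. The 2 libraries hold 254967545 and 82339738 transcripts in 1303455 and 197446 barcodes.

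The 7 genes and all gene lists were chosen with earlier results of these data known. Kept barcodes (limits in the report) were scaled to 10000 counts and log-transformed, and clusters were built on 2000 variable genes without the 7 genes and their relatives, with 30 principal components, 15 neighbours and Leiden resolution 1 (scanpy 1.11.5, igraph 0.11.9, scikit-learn 1.9.0, seed 0). Clusters of at least 100 barcodes were named from fixed markers. At least 3 markers had to be 1.5-fold above all other barcodes and seen in 25% of the cluster. There had to be 2 times as many as for the next type and, for non-dividing classes, no hypoxia markers. A cluster stayed unnamed if more of its 10 leading genes were markers of another type than of its own. It also did so if it was shallow and none of those genes was its own marker. The size limit, the factor of 2, the exclusion of clusters with hypoxia markers (2479 excitatory-named cells and 336 RG-named nuclei), the EOMES-led class, the 2-marker inhibitory limit, the limit at 50000 transcripts and the values without cluster 13 of the nuclei or cluster 17 of the cells were chosen after the data were seen. Doublets were kept; an alternative set aside the highest scores of Scrublet (5% of cells and 3% of nuclei). Depth was uneven, with 407 cells above 50000 transcripts.

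Levels are pooled counts over pooled totals. Intervals are exact Poisson for levels, Clopper-Pearson for shares and conditional binomial for ratios, at 95%. A gene entered the counts over all genes with at least 50 counts over both classes, and those of relatives with at least 50 over the RG-like, excitatory, inhibitory and ChP classes in each library. Sub-libraries (8 and 2) gave the technical spread. For the background, all barcodes holding 10 to 100 transcripts were pooled (1022725 and 167580). Its share in a class was set so that the ChP markers outside ChP were explained by it, and may be wrong where these cells express such markers. For ChP itself the mean of the RG and excitatory shares was used. Of 62704 gene identifiers, 62625 matched GENCODE release 44.

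The 7 genes are named, with up to 3 genes per list that had the largest difference of one sign in both libraries, and for each of the 7 the 3 genes most like it. Some genes this rule gives are not reported here. Genes leading a cluster were named after their values were seen. Steps were tested on simulated data. Alternatives were other limits on barcodes, thinning depths, folds, resolutions, seeds and marker barcodes. Limits that narrow the barcodes took subsets of the classes, and the others were clustered anew. Computation used scipy 1.17.1 with numpy 2.4.6, anndata 0.12.19 with pandas 2.3.3, and Python 3.11.15, and plots used matplotlib 3.10.9.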

Additional observations from a re-analysis of the deposited data

How the results depend on the processing

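With 1 sample per library, no alternative leaves out a replicate. No paired analysis was possible because the libraries share only replicate number 1 and no test was run. Of 836 log2 ratios under the alternatives, 319 moved beyond the counting interval of the value reported, and 1 more, past 2-fold as reported, also changed sign. Of 168 shares, which were drawn at 500 or 2000 transcripts or without thinning, 128 moved beyond theirs. Of 607 values of log2 ratios past 2-fold under the alternatives, 606 kept their sign and 23 came under 2-fold. The exception in sign was MEIS1 in inhibitory-marker nuclei, which rests on 13 transcripts and was -0.17 without the top well, where 1 gene remained at least 2-fold higher (17.3% of all genes). Of 242 counts of genes past 2-fold, 14 moved by more than 1.5 times; the share of all genes past the same limit in the same direction is given in brackets. With a limit of 1.5-fold, 1 gene was higher in excitatory neuron-like cells (13.8%) and 1 in such nuclei (18.2%), and 4 were lower in inhibitory-marker nuclei (45.4%). With a limit of 3-fold, 0 genes were higher in ChP-like cells (8.33%) and 0 in ChP-like nuclei (9.89%), 1 was higher in inhibitory-marker nuclei (6.85%) and 3 were lower in EOMES-led nuclei (5.42%). In excitatory neuron-like cells, 2 genes were lower at resolution 2 (5.72%). In ChP-like cells, 0 were higher at resolution 0.5 (9.08%), 0 with seed 1 (9.40%) and 0 with the 7 genes and their relatives kept among the variable genes (9.08%). The ChP-like class then held 117, 123 and 136 cells, against 610 as reported. Among inhibitory-marker nuclei of more than 5000 transcripts, 4 genes were lower (47.1%) and 0 higher (14.1%). Without cluster 13, added after the data were seen, 6 genes were lower (18.9%) and 0 higher (12.1%) in excitatory neuron-like nuclei. The causes were not tested. ZFHX3 stayed higher in excitatory neurons than in RG under every alternative, with log2 ratios of 0.23 to 0.84 in cells and 0.37 to 0.92 in nuclei. Nuclei at resolution 0.5 gave no ChP-like or EOMES-led class and so no value. The inhibitory class rests on few barcodes.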
